A study of Mus musculus with 6 samples.

Results

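A set of 68 genes was higher in IRAK4 knockout (KO) KP2 cells than in wild-type cells and stayed higher after rescue. KP2 is a mouse pancreatic cancer line that came from a KPC animal, whose tumours arise from engineered alleles, of strain C57BL/6J and at fewer than 10 passages. RNA-seq counts were deposited for 3 groups of 2 libraries, namely the KO with rescue (called rescue), the KO and wild type. The KO was made by infecting KP2 cells with plentiCRISPR vectors that encode sgRNAs against IRAK4, and all cells were grown in DMEM with 10% FBS and 1% Pen/Strep. The labels do not describe the rescue construct, a vector control in wild-type cells, or whether the KO is 1 clone, and they do not say that replicates were separate cultures, and every p-value here is set against a spread that may be technical.

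The members were chosen by their measured values, as CPM, the count scaled to the library total. A member had at least 5 CPM in each of the 4 rescue and KO libraries, and in each of them at least 2.5 times the higher wild-type value. Of 41388 genes listed, 9876 had at least 5 CPM in the 4 libraries, and 68 of these (0.689%) met the ratio. In the KO libraries alone 131 genes met the rule, and 63 of them were not kept in both rescue libraries. In the rescue libraries alone 90 genes met it, 22 of which did not meet it in both KO libraries. Because the rule compared rescue and KO with wild type, those differences of the members are given as a description, without a test, and counts of calls against wild type below leave the members out. The rule did not set rescue against KO, and that comparison was tested. A gene that fell far in rescue could not stay a member, which limits how many members can be lower in rescue than in KO.

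Library totals ranged from 7605328 to 11505983 counts. Irak4, the targeted gene, had 495.3 and 208.5 CPM in the rescue libraries and 21.21 and 22.82 CPM in the KO libraries, against 35.92 and 36.27 CPM in wild type. The KO libraries were lowest and the rescue libraries far above wild type, and the rescue libraries differed from each other. The target sites of the guides are not in the labels, so the RNA level in KO does not check the edit. Epithelial markers summed to 4813 and 5572 CPM in rescue and 4067 and 4207 CPM in KO, against 6693 and 6504 CPM in wild type, with Krt18, Krt19 and Krt8 as the leading transcripts. In bulk RNA a gene present in fewer cells and one with less RNA per cell cannot be told apart.

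Interferons are secreted alarm proteins that bind cell-surface receptors. Type I interferons act through the kinases JAK1 and TYK2 on a complex with STAT2 and IRF9 that binds DNA at the interferon-stimulated response element. The interferon-stimulated genes (ISGs) include sensors of viral RNA, enzymes that stop viral growth, GTPases that act on vacuoles of intracellular parasites, and the machinery that presents peptides on MHC class I. IRAK4 itself is the kinase that links Toll-like and interleukin-1 receptors to NF-kB. ISGs made up 37 of the 68 members (54.4%), from a list of 212 symbols, and the other 31 belonged to no such single system. Of the genes that met the rule in KO and were not kept in rescue, 4 of 63 (6.35%) were on the ISG list, namely Ifi27l2b, Ifi35, Mndal and Tlr3. Of those that met it in rescue and not in KO, 10 of 22 (45.5%) were on the list, namely B2m, F830016B08Rik, Ifi209, Ifi27l2a, Ifit3, Mx2, Oas1a, Oas1b, Rsad2 and Trim12c. Among the 9876 genes with at least 5 CPM in the 4 rescue and KO libraries, 140 were on the list. Each of the shares above was larger than that, the 6.35% included, and the difference was not tested. The sets of 63 and 22 genes needed the floor in their own group alone, so the background is approximate for them. The list was chosen with earlier results of these data known.

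Promoter windows of 15 ISG members held a sequence feature that was found in no matched window of the other members. The core of the interferon-stimulated response element is a pair of GAAA copies with 2 bases between them, searched on both strands in RefSeq promoter windows (GRCm38.p6) from 250 bases before to 50 bases after each start. A window was matched for 28 of the 37 ISG members and 20 of the 31 others. The GAAA pair was present for 15 of 28 ISG members (53.6%) and for 0 of 20 other members, against 353 of 9495 matched genes among those tested (3.72%) and 3.99% of all genes in the promoter table. Of the ISGs outside the member set 54 of 132 (40.9%) had it. The ISG members were set apart by a list of interferon-stimulated genes, so the pair describes genes of that list and does not support the rule. A window without it says only that these letters are not there. With 1 or 2 bases between the copies the shares were 67.9% of ISG members, 0 of the other members and 6.23% of the genes tested. The gamma-activated site, TTCNNNGAA, which reads the same on both strands, was found for 4 ISG members (14.3%; Gbp7, Bst2, Irgm2 and Psmb8) and 2 others (10.0%; Fat4 and Nox4), against 8.2% of the genes tested, and it overlapped a GAAA pair in Bst2. ISG member windows held less G and C (median 51.8%) than those of the other members (58.3%) and of the genes tested (61.0%), and whether base composition affects the motif shares was not tested.

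The windows below show the pair in its setting for 8 ISG members, read in the direction of transcription and ending before the start. Capitals mark the 2 GAAA copies and the 2 bases between them, which read as TTTC copies where the pair lies on the opposite strand.

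Isg15, chr4:156200856-156200915, minus strand: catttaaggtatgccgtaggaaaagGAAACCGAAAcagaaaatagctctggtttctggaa

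Ifit1, chr19:34640779-34640838, plus strand: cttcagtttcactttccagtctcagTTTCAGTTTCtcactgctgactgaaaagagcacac

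Ddx60, chr8:61928009-61928068, plus strand: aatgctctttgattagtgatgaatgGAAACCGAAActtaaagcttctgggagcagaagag

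Gbp7, chr3:142530258-142530317, plus strand: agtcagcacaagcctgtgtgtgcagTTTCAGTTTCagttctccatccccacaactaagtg

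Irgm2, chr11:58214888-58214947, plus strand: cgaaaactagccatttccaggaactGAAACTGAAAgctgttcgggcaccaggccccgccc

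Slfn9, chr11:82991841-82991900, minus strand: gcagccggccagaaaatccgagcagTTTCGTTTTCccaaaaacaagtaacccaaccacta

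Trim30a, chr7:104465195-104465254, minus strand: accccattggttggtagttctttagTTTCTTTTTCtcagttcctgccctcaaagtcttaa

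Trim30d, chr7:104507856-104507915, minus strand: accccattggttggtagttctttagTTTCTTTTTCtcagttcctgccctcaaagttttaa

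In 14 of the 15 ISG members with the pair, a copy was centred in the 100 bases before the start, and the median centre of the nearest copy was -40.5 bases from the start. Bst2 was the exception, with its overlapping pairs further upstream. Isg15 held 3 overlapping pairs and Ifit1 held 2 pairs. The printed windows of the paralogues Trim30a and Trim30d were the same at 59 of 60 bases, and a 60-base window of Apol9a was the same as one of Apol9b at all 60. A match is a description of letters and does not show that a factor binds there.

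**Figure D1:**
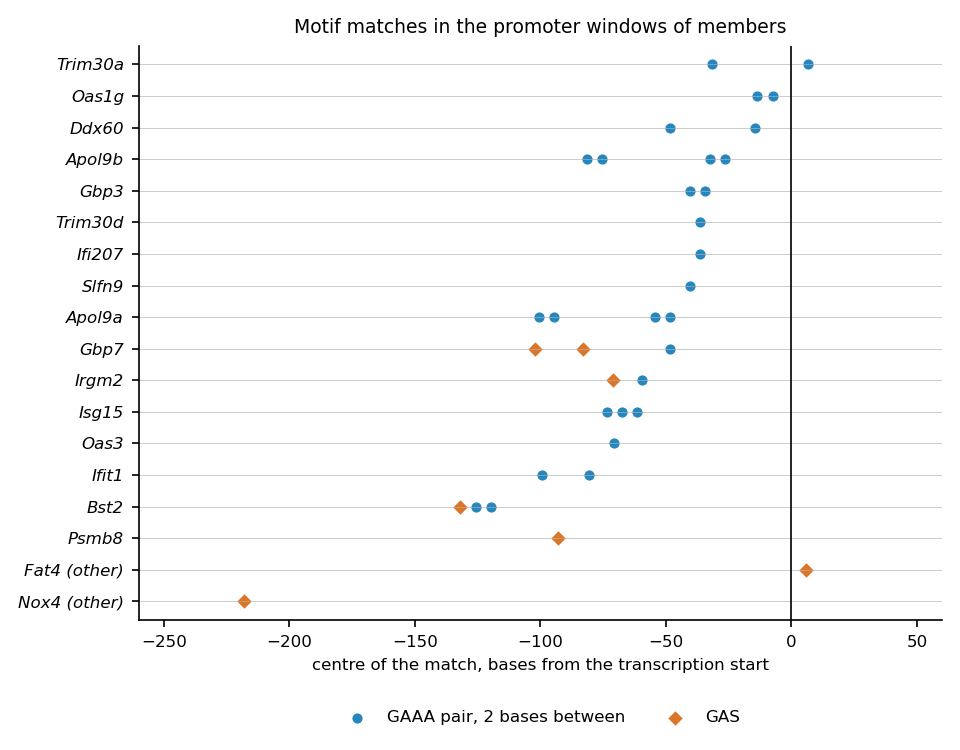
Centre of each motif match (x axis, bases from the transcription start, which is at 0) in the promoter windows of the members that hold one (y axis). Circles are GAAA pairs with 2 bases between the copies and diamonds are gamma-activated sites; the circles belong to 15 ISG members and to no other member.

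ISG members together took 2410 and 2124 CPM of the rescue libraries and 1726 and 1594 CPM of the KO libraries, against 421.5 and 440.2 CPM in wild type. Both rescue sums lay above both KO sums, while wild type was lowest because of the rule. The median ratio of group means over the 37 genes was 5.90 for rescue over wild type (3.41 to 57.7) and 3.97 for KO over wild type (2.98 to 69.5). These ratios follow from the rule and support nothing by themselves.

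The 14 ISG members that stood furthest above wild type came from several arms of the response. Gm4951, an interferon-inducible GTPase gene, had 11.1 and 6.57 CPM in rescue and 10.8 and 10.6 CPM in KO, against 0.225 and 0.0942 CPM in wild type, where only 3 counts were found over both libraries. Its ratio to wild type was 57.7 in rescue (95% counting interval 19.3 to 283) and 69.5 in KO (23.5 to 339.5). Iigp1, the GTPase Irga6 that acts on parasite vacuoles, had 18.9 and 14.1 CPM in rescue and 10.8 and 9.61 CPM in KO, against 1.58 and 1.04 CPM in wild type. Both lie on chromosome 18, and of the pair only Iigp1 was higher in both rescue libraries than in both KO libraries.

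Cmpk2, a mitochondrial nucleotide kinase, had 34.8 and 24.9 CPM in rescue and 31.0 and 23.3 CPM in KO, against 2.93 and 3.11 CPM in wild type. Sp100, a nuclear body protein, had 40.6 and 45.1 CPM in rescue and 26.2 and 22.1 CPM in KO, against 3.38 and 3.39 CPM in wild type. Rescue and KO overlapped for Cmpk2, whereas both rescue libraries lay above both KO libraries for Sp100. Usp18, which removes ISG15 from proteins and restrains the type I interferon receptor, had 53.7 and 47.9 CPM in rescue and 36.6 and 29.2 CPM in KO, against 4.95 and 5.84 CPM in wild type. Isg15, the ubiquitin-like modifier itself (chromosome 4, 156199424 to 156200818), had 73.76 and 54.96 CPM in rescue and 39.9 and 33.9 CPM in KO, against 9.35 and 8.67 CPM in wild type. For both the modifier and the enzyme that takes it off, each rescue library lay above each KO library. Their place above wild type follows from the rule.

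Psmb8 and Psmb9 encode catalytic subunits of the immunoproteasome, which cuts proteins into peptides for MHC class I. Psmb8 had 27.9 and 29.1 CPM in rescue and 18.7 and 17.2 CPM in KO, against 3.15 and 3.86 CPM in wild type. Psmb9 had 13.0 and 16.2 CPM in rescue and 7.21 and 5.65 CPM in KO, against 1.13 and 1.51 CPM in wild type. For both genes each rescue library lay above each KO library, and Psmb9 stood 11.1-fold above wild type in rescue and 4.88-fold in KO. Oas3, which makes the 2'-5' oligoadenylates that switch on RNase L when double-stranded RNA is present, had 166.8 and 177.0 CPM in rescue and 98.7 and 84.8 CPM in KO, against 22.3 and 22.1 CPM in wild type. Gbp3, a guanylate-binding protein, had 19.8 and 14.1 CPM in rescue and 11.0 and 11.5 CPM in KO, against 1.80 and 2.83 CPM in wild type. Trim30d, of a TRIM family expanded in the mouse, had 20.2 and 18.9 CPM in rescue and 12.6 and 13.1 CPM in KO, against 3.27 and 2.17 CPM in wild type. All 3 were higher in each rescue library than in each KO library.

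Apol9b, of the apolipoprotein L family, had 56.8 and 54.2 CPM in rescue and 36.4 and 35.2 CPM in KO, against 7.77 and 9.33 CPM in wild type. Rtp4, an interferon-induced receptor-transporting protein, had 57.6 and 41.9 CPM in rescue and 34.2 and 31.2 CPM in KO, against 7.88 and 8.57 CPM in wild type. Slfn2, a Schlafen protein known from T-cell quiescence, had 125.8 and 83.0 CPM in rescue and 116.5 and 139.8 CPM in KO, against 20.9 and 22.5 CPM in wild type. Apol9b and Rtp4 were highest in rescue, while for Slfn2 rescue and KO overlapped and the second rescue library was the lowest of the 4.

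Levels between genes were compared per length, as RPKM (the count per length of the gene and per library total). The highest member was Bst2, the tetherin that holds budding virus at the cell surface, with a mean of 375.4 RPKM in rescue and 278.7 RPKM in KO, against 88.6 RPKM in wild type. Slfn2 had 62.7 RPKM in rescue and 77.0 RPKM in KO, against 13.1 RPKM in wild type. Isg15 had 85.1 RPKM in rescue and 48.8 RPKM in KO, against 11.9 RPKM in wild type. Bst2 thus stood far above the next members per length in rescue and in KO. Gpnmb, which is no ISG, had 35.2 RPKM in rescue and 68.0 RPKM in KO, against 1.90 RPKM in wild type. Apol9b had 35.9 RPKM in rescue and 23.2 RPKM in KO, against 5.53 RPKM in wild type. In CPM, Bst2 had 305.4 and 268.2 in rescue and 214.7 and 211.2 in KO, against 68.4 and 67.0 in wild type.

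**Figure D2:**
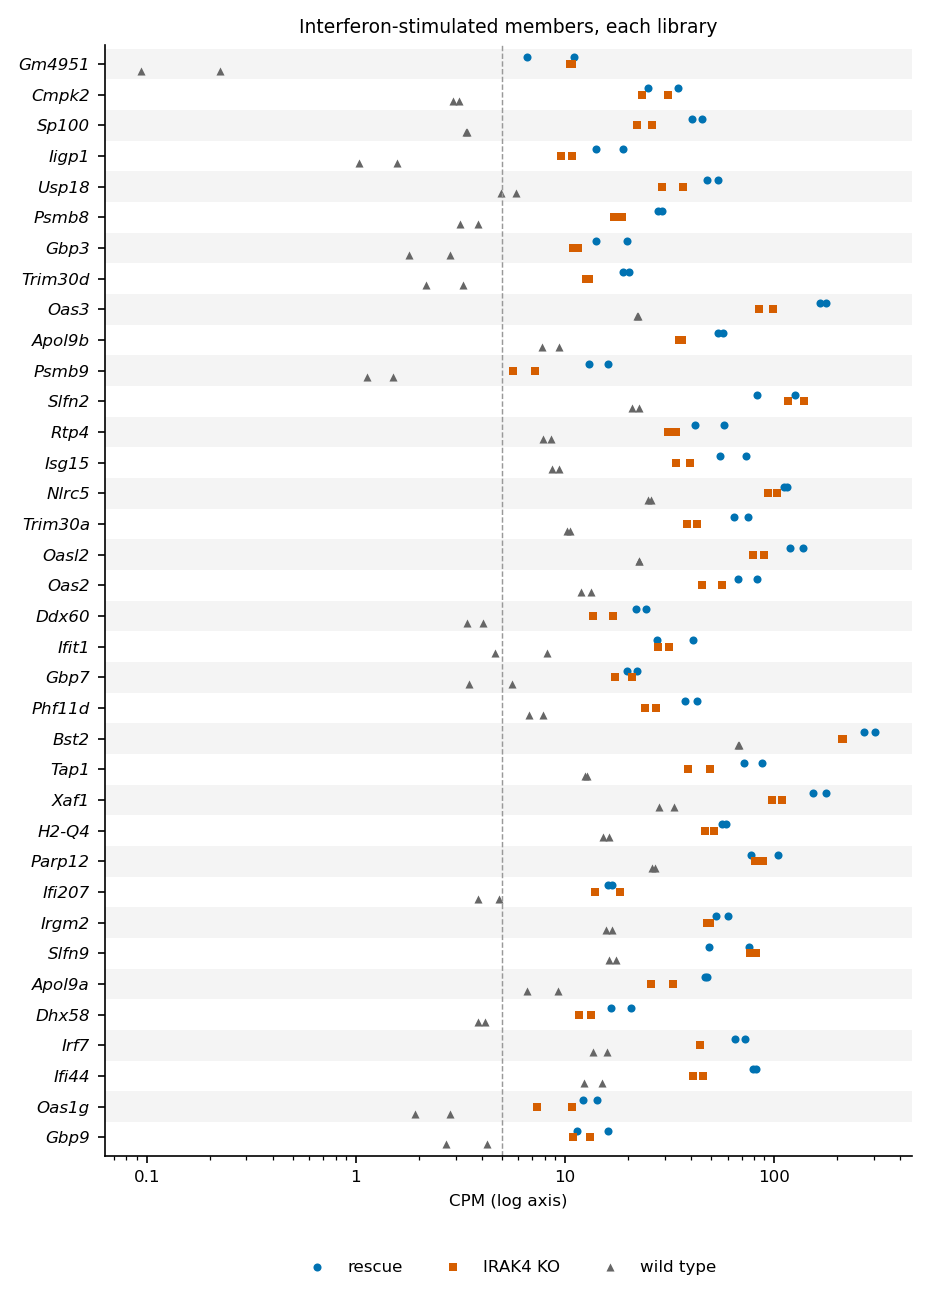
CPM of 36 of the 37 ISG members (x axis, log scale) by gene (y axis, ordered by the lowest rescue or KO value over the higher wild-type value), with 1 symbol per library: circles for rescue, squares for KO and triangles for wild type. The dashed line is the 5 CPM floor of the rule; all circles and squares lie right of the triangles because the rule asked for it, and for 27 genes both circles lie right of both squares once libraries are scaled.

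The tested comparison was rescue against KO, by edgeR's quasi-likelihood test with Benjamini-Hochberg adjustment over all 12339 genes tested. Of the 37 ISG members 23 were higher in rescue than in KO, 0 were lower and 14 were not called, where 8.35% of all genes tested were called higher and 5.88% lower. The median log2 fold change of the ISG members was 0.66, ranging from -0.28 to 1.23, against a median of -0.00374 over all genes tested. Of the 31 other members 1 was higher and 5 were lower, with a median log2 fold change of -0.0333. At an unadjusted p under 0.05, 27 ISG members were higher and 0 lower by edgeR, and DESeq2's Wald test called 18 higher and 0 lower after adjustment. On scaled CPM both rescue libraries lay above both KO libraries for 27 ISG members and below for 0, and above for 9 and below for 10 of the other members; over all genes tested these shares were 29.3% above and 30.1% below.

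Among the members Oas3 had the smallest adjusted p, with a log2 fold change of 0.97 (SE 0.095, adjusted p = 7.5e-04). Ifi44, an interferon-induced protein, followed with 79.8 and 82.2 CPM in rescue and 45.7 and 41.0 CPM in KO, against 12.4 and 15.1 CPM in wild type, and a log2 fold change of 0.96 (SE 0.10, adjusted p = 9.4e-04). Trim30a had 75.04 and 64.17 CPM in rescue and 42.7 and 38.2 CPM in KO, against 10.6 and 10.3 CPM in wild type, and rose by 0.84 on the log2 scale in rescue over KO (SE 0.11, adjusted p = 0.00153). In each of these genes the 2 rescue libraries lay above both KO libraries. Xaf1, a factor that promotes cell death, had 176.5 and 154.6 CPM in rescue and 109.0 and 97.5 CPM in KO, against 28.3 and 33.2 CPM in wild type (log2 fold change 0.74 for rescue over KO, SE 0.10, adjusted p = 0.00191). Irf7, the transcription factor that amplifies interferon production, had 72.5 and 65.2 CPM in rescue and 44.2 and 44.4 CPM in KO, against 13.6 and 15.8 CPM in wild type (rescue over KO: log2 fold change 0.70, SE 0.098, adjusted p = 0.0023). In all 5 genes both rescue libraries lay above both KO libraries, which by the rule lay above wild type.

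Over all ISG members 62.2% were called higher in rescue than in KO, and over all genes tested 8.35%. Each class of role holds few genes, and differences between classes were not tested. By role, the RNA sensing and decay genes were Oas3, Oasl2, Oas2, Ddx60, Dhx58 and Oas1g. These 6 had log2 fold changes of 0.59 to 0.97, and 5 were called higher in rescue than in KO. Oas1g at 0.59 was not called (adjusted p = 0.0909). MHC class I presentation (Psmb8, Psmb9, Tap1 and H2-Q4) had 3 of 4 higher, led by Psmb9 at 1.23 (SE 0.21, adjusted p = 0.00427), while the class I heavy chain gene H2-Q4 was at 0.29 (adjusted p = 0.0651). Of the signalling and transcription genes Sp100, Usp18, Isg15 and Irf7 were higher. Nlrc5, the transactivator of MHC class I genes, was at 0.27 (adjusted p = 0.0621).

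The Trim30a, Trim30d, Apol9a and Apol9b genes were all higher in rescue than in KO, whereas the Schlafen genes Slfn2 and Slfn9 were at -0.23 and -0.28 and were not called. The GTPases Gm4951, Iigp1, Gbp3, Gbp7, Gbp9 and Irgm2 had 2 of 6 higher (Iigp1 and Gbp3), with a range of -0.21 to 0.75. Among genes that act on virus or nucleotides, Bst2 was higher at 0.50 (SE 0.084, adjusted p = 0.00449), while Cmpk2, Ifit1 and Parp12 were at 0.17 to 0.27 and not called. Of the remaining interferon-induced genes, Rtp4, Phf11d, Xaf1 and Ifi44 were higher and Ifi207, at 0.070, was not called. Leaving out the first rescue library, Slfn2 and Slfn9 were called lower in rescue, at -0.54 and -0.62. Leaving out the second KO library left 9 of the 29 member calls, all of them ISGs that were higher.

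**Figure D3:**
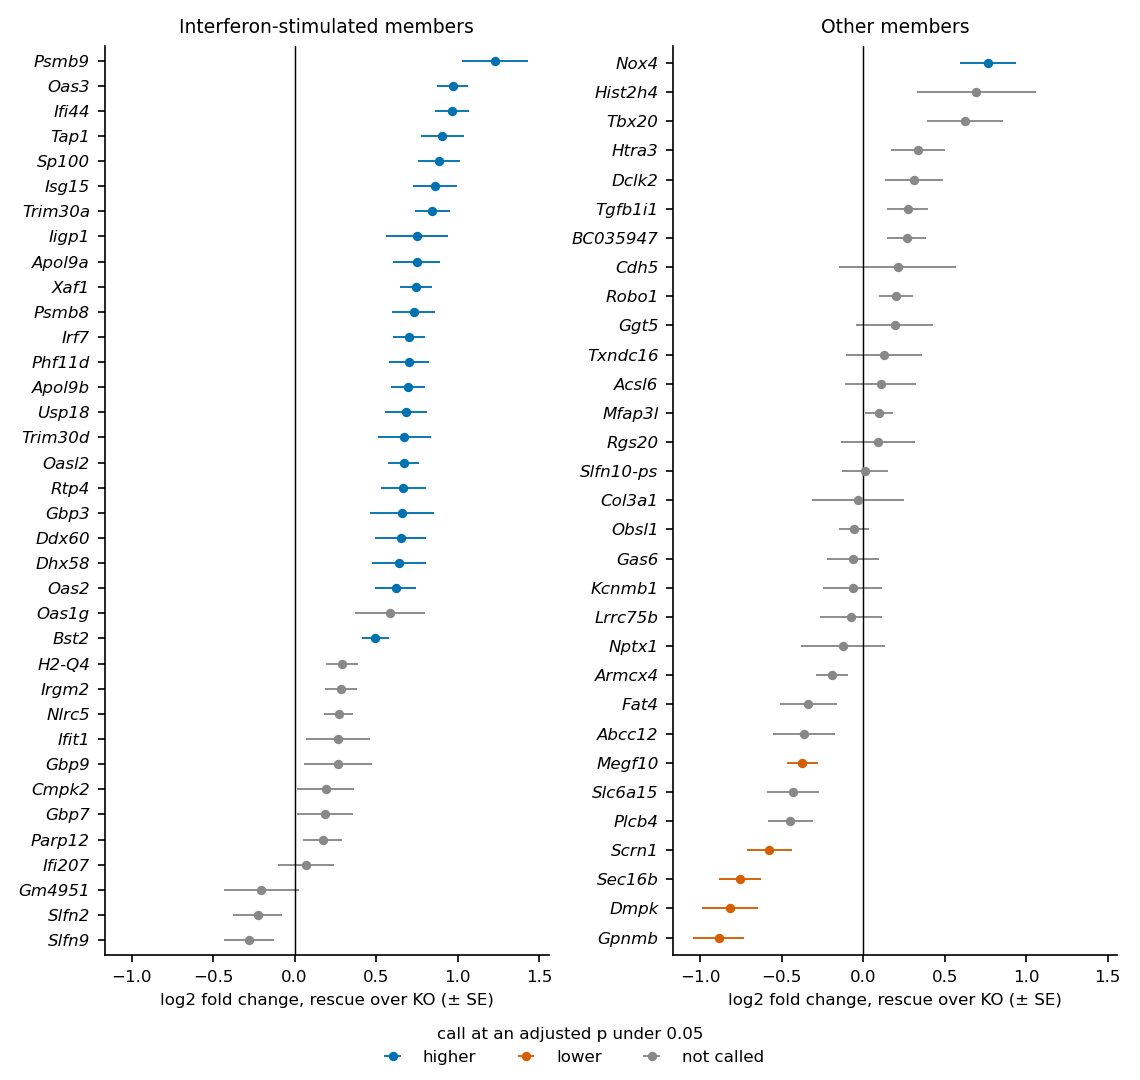
Log2 fold change of rescue over KO with its SE (x axis) for 36 ISG members (left) and each other member (right), coloured by whether the gene was called higher, lower or not at all. Of the ISG members drawn 33 of 36 lie right of 0 and 23 are called; of the other members 15 of 31 lie right of 0, and 4 of the 5 called lower (Scrn1, Sec16b, Dmpk and Gpnmb) end the right-hand list.

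The 2 rescue libraries were not alike. The first, which had more Irak4, was above the second in CPM for 30 of 37 ISG members and 22 of 31 others, where 6699 of the 12339 genes tested were. The KO libraries, with 21.21 and 22.82 CPM of Irak4, differed in a like way for the ISG members. There the first was above the second for 31 of 37 ISG members and 16 of 31 others, where 5939 of the 12339 genes tested were. With 2 libraries no relation between Irak4 and ISG levels could be tested.

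The ISG members do not stand for the whole list. Of 212 entries 204 had a row, and 140 reached 5 CPM in the 4 rescue and KO libraries. Besides the 37 members, 79 of these had all 4 libraries above both wild-type libraries, 4 had all 4 below (Apobec3, Casp4, Ifitm2 and Plac8) and 20 were mixed. In rescue against KO, the 125 ISGs tested that are no members had 31 (24.8%) higher and 5 lower. Their median log2 fold change was 0.26. Over all genes tested 8.35% were called higher and 5.88% lower in rescue than in KO. Only the higher share of these ISGs was above that of all genes. Of the same 125 genes 79 (63.2%) were higher and 11 (8.80%) lower in KO than in wild type, where 23.2% of all genes tested were called higher and 23.5% lower. In rescue against wild type 93 (74.4%) were higher and 4 (3.20%) lower, where the shares of all genes tested were 10.2% and 12.0%. Both comparisons share the wild-type libraries.

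Transcripts of the interferons themselves were close to absent. Of 21 interferon genes 18, Ifnb1 and all listed Ifna genes and Ifng among them, had 0 counts in all 6 libraries, which allows up to 0.0548 CPM for each over the 6 libraries together. The other 3 (Ifnk, Ifnz and Ifne) reached at most 0.240 CPM in any library, and the family summed to 1 and 0 counts in rescue and 3 and 2 counts in KO, against 3 and 2 counts in wild type. The level was thus at the counting floor in every group.

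Among 13 receptor and JAK-STAT genes that are no members, 2 (15.4%) were higher and 5 (38.5%) lower in KO than in wild type, beside 23.2% and 23.5% of all genes tested. In rescue against wild type 2 (15.4%) were higher and 4 (30.8%) lower, beside 10.2% and 12.0%. The receptor subunit Ifngr1 had 218.3 and 227.7 CPM in rescue and 202.7 and 197.7 CPM in KO, against 271.1 and 295.6 CPM in wild type, and was lower in both groups than in wild type. Jak1, the kinase shared by these receptors, had 215.5 and 255.0 CPM in rescue and 226.8 and 215.8 CPM in KO, against 245.9 and 244.9 CPM in wild type, and was called lower in KO and not called in rescue. Ifngr2, the partner of Ifngr1, had 64.6 and 59.8 CPM in rescue and 82.3 and 98.4 CPM in KO, against 92.2 and 99.1 CPM in wild type, and was lower in rescue than in KO (log2 fold change -0.47, adjusted p = 0.0138). The 2 genes higher than wild type, Stat2 and Irf9, were so in both groups and are named here after their values were seen. Both are also on the ISG list.

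Of 17 nucleic acid sensing genes tested that are no members, 11 (64.7%) were higher and 1 (5.88%) lower in KO than in wild type. Over all genes tested these shares were 23.2% and 23.5%. Against wild type, rescue had 10 (58.8%) higher and 1 (5.88%) lower, beside 10.2% and 12.0% of all genes tested. In rescue against KO 2 (11.8%) were higher and 1 (5.88%) lower, near the 8.35% and 5.88% of all genes tested. The RNA helicase sensor Ddx58 (RIG-I) had 150.5 and 141.3 CPM in rescue and 117.3 and 102.0 CPM in KO, against 55.5 and 65.5 CPM in wild type. Adar, which edits double-stranded RNA, had 221.5 and 192.6 CPM in rescue and 191.5 and 184.9 CPM in KO, against 115.4 and 117.8 CPM in wild type. Trim25, a ligase that acts on RIG-I, had 196.5 and 187.4 CPM in rescue and 182.8 and 179.7 CPM in KO, against 127.5 and 138.8 CPM in wild type. Only Ddx58 of these 3 was called between rescue and KO (log2 fold change 0.48, adjusted p = 0.0121). Several genes of this list, Ddx58, Adar, Trim25, Ifih1 and Tlr3 among them, are also on the ISG list and were counted with it above.

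Of 15 MHC class I presentation genes tested that are no members, 11 (73.3%) were higher and 0 lower in KO than in wild type by edgeR, and 14 (93.3%) were higher and 0 lower in rescue than in wild type, beside the same shares of all genes (23.2% and 10.2% higher). In rescue against KO 5 (33.3%) were higher and 0 lower, where 8.35% of all genes tested were higher. All genes of this list but Calr, Canx and Pdia3 are also on the ISG list, so these counts overlap those of the ISGs above. At an unadjusted p under 0.05 edgeR had 0 lower in both comparisons with wild type and 3 lower in rescue against KO, and DESeq2 called 0 lower in all 3. B2m, the light chain of MHC class I, had 1343 and 1387 CPM in rescue and 1000 and 1055 CPM in KO, against 484.5 and 515.1 CPM in wild type, and was higher in rescue than in KO (log2 fold change 0.48, adjusted p = 0.00547). MHC class II was not part of the set, and its 9 listed genes stayed under 1 CPM in every library.

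Defining markers of immune cells other than Cd14 and Cd68 were at or near 0 in every group. The 10 macrophage markers summed to 57.6 and 43.0 CPM in rescue and 77.7 and 83.6 CPM in KO, against 65.8 and 79.6 CPM in wild type, nearly all of it Cd14 and Cd68, with Adgre1, Lyz2 and C1qa at 0 counts. The 10 T and NK cell markers summed to at most 1.35 CPM in any library with Cd3e and Nkg7 at 0, and the 6 B-cell markers to at most 0.383 CPM with Ms4a1 at 0. Dendritic cell markers summed to at most 2.37 CPM, acinar markers to at most 4.32 CPM, melanocyte markers to at most 1.22 CPM and islet markers to at most 0.0942 CPM in any library. Neural and Schwann cell markers, mostly Tubb3, summed to 26.5 and 33.3 CPM in rescue and 21.5 and 19.3 CPM in KO, against 25.2 and 25.7 CPM in wild type.

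The 31 other members together took 1102 and 917.1 CPM in rescue and 1246 and 1320 CPM in KO, against 208.6 and 205.5 CPM in wild type. In these sums both KO libraries were above both rescue libraries, where the sums of the ISG members had the opposite order. Without Gpnmb, the largest of them, the sums were 939.1 and 812.7 CPM in rescue and 990.0 and 1059 CPM in KO, against 202.6 and 197.1 CPM in wild type, in the same order. Sums weigh the genes with most counts, and Megf10 and Dmpk, also large, were lower in rescue too. Gene by gene no order was shared. On scaled CPM both rescue libraries lay above both KO libraries for 9 of the 31 genes and below for 10, with a median log2 fold change of -0.0333. The median ratio over the 30 genes with a wild-type count was 4.72 for rescue over wild type and 5.59 for KO over wild type.

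For 3 of them wild type was at or near 0 counts. BC035947, a protein-coding gene with no stated role (chromosome 1, 78497026 to 78512158), had 39.3 and 43.4 CPM in rescue and 37.4 and 34.5 CPM in KO, against 0 and 0.0942 CPM in wild type. A single wild-type count put it 805.5-fold above wild type in rescue (95% counting interval 144.1 to 31860) and 704.9-fold in KO (126.1 to 27880). Kcnmb1, the beta subunit of the calcium-activated BK potassium channel (chromosome 11, 33963013 to 33973641), had 16.5 and 22.4 CPM in rescue and 22.5 and 19.8 CPM in KO, against 0.113 and 0 CPM in wild type. Its ratio to wild type, again over 1 count, was 377.5 in rescue (67.2 to 14960) and 416.8 in KO (74.4 to 16500).

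Ggt5, a gamma-glutamyltransferase that cleaves leukotriene C4 (chromosome 10, 75589340 to 75617200), had 6.25 and 5.52 CPM in rescue and 5.39 and 5.41 CPM in KO, against 0 counts in both wild-type libraries. With a floor of 3 counts over the group it was at least 38.3-fold higher in rescue and at least 35.1-fold higher in KO. None of the 3 was called between rescue and KO, with log2 fold changes of 0.27 for BC035947 (adjusted p = 0.163), -0.065 for Kcnmb1 (adjusted p = 0.844) and 0.19 for Ggt5 (adjusted p = 0.621). These genes passed in all 4 rescue and KO libraries and were barely detected in wild type.

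Gpnmb, a lysosomal and melanosomal glycoprotein (chromosome 6, 49036518 to 49058182), had 163.0 and 104.4 CPM in rescue and 256.0 and 260.6 CPM in KO, against 5.97 and 8.48 CPM in wild type. It was lower in rescue than in KO, with a log2 fold change of -0.89 (SE 0.16, adjusted p = 0.00547), and stood 18.5-fold above wild type in rescue and 35.8-fold in KO. Dmpk, the myotonic dystrophy kinase, had 92.4 and 70.7 CPM in rescue and 121.2 and 180.8 CPM in KO, against 24.2 and 19.5 CPM in wild type (log2 fold change -0.82 for rescue over KO, SE 0.17, adjusted p = 0.0122). Sec16b, which organises exit sites of the endoplasmic reticulum, had 20.3 and 17.6 CPM in rescue and 32.1 and 35.2 CPM in KO, against 6.08 and 6.12 CPM in wild type (rescue over KO: log2 fold change -0.76, SE 0.13, adjusted p = 0.00435). For all 3 both rescue libraries lay below both KO libraries and, by the rule, above wild type.

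Scrn1, secernin 1, had 21.6 and 17.0 CPM in rescue and 29.5 and 30.7 CPM in KO, against 4.05 and 4.52 CPM in wild type (log2 fold change -0.58 for rescue over KO, SE 0.14, adjusted p = 0.0199). Megf10, a receptor for engulfing dead cells, had 124.7 and 103.9 CPM in rescue and 158.0 and 151.7 CPM in KO, against 35.5 and 38.2 CPM in wild type (rescue over KO: log2 fold change -0.37, SE 0.094, adjusted p = 0.025). Nox4, an NADPH oxidase that makes hydrogen peroxide, was the 1 other member that was higher in rescue, with 14.3 and 13.7 CPM in rescue and 8.08 and 9.25 CPM in KO, against 2.59 and 3.01 CPM in wild type (rescue over KO: log2 fold change 0.76, SE 0.17, adjusted p = 0.0152). Scrn1 and Megf10 thus fell part of the way to wild type in rescue and Nox4 moved further from it. None of these 6 calls held without the second KO library, where the log2 fold changes were -0.88 for Gpnmb, -0.52 for Dmpk, -0.70 for Sec16b, -0.56 for Scrn1, -0.41 for Megf10 and 0.85 for Nox4, with adjusted p-values of 0.0543 to 0.121.

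Col3a1, a fibrillar collagen, had 9.32 and 5.79 CPM in rescue and 9.56 and 6.37 CPM in KO, against 0.563 and 0.188 CPM in wild type. The 10 fibroblast and stellate markers summed to 18.9 and 23.8 CPM in rescue and 15.6 and 10.7 CPM in KO, against 13.2 and 12.8 CPM in wild type, mostly Col1a1, with Dcn, Lum and Thy1 at 0 counts. Cdh5, the cadherin of endothelial junctions, had 38.0 and 14.5 CPM in rescue and 16.5 and 31.9 CPM in KO, against 2.82 and 3.49 CPM in wild type. Its values differed widely between the libraries of both groups, and 5 of the 7 endothelial markers were under 1 CPM in every library, with Kdr at 0 and 0.132 CPM in rescue and 0.0869 and 0.120 CPM in KO, against 1.46 and 1.60 CPM in wild type.

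Slc6a15, a neutral amino acid transporter, had 17.5 and 13.8 CPM in rescue and 22.1 and 22.1 CPM in KO, against 1.35 and 1.98 CPM in wild type. Abcc12, an ABC transporter, had 8.04 and 7.63 CPM in rescue and 9.73 and 11.5 CPM in KO, against 1.13 and 1.32 CPM in wild type. Both rescue libraries lay below both KO libraries for these transporters, yet neither was called (adjusted p = 0.0886 for Slc6a15 and 0.217 for Abcc12). Mfap3l had 84.1 and 76.8 CPM in rescue and 78.0 and 79.8 CPM in KO, against 11.4 and 10.7 CPM in wild type. Acsl6, an acyl-CoA synthetase, had 14.3 and 11.7 CPM in rescue and 10.2 and 15.5 CPM in KO, against 1.35 and 2.07 CPM in wild type. Hist2h4, a histone H4 gene whose near-identical copies make its count uncertain, had 23.2 and 7.36 CPM in rescue and 10.3 and 9.37 CPM in KO, against 1.24 and 1.41 CPM in wild type, so that 1 rescue library set its group mean. On unscaled CPM rescue and KO overlapped for all 3 of these genes.

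Rgs20, a regulator of G protein signalling, had 5.36 and 6.18 CPM in rescue and 6.00 and 5.28 CPM in KO, against 0.901 and 1.13 CPM in wild type. Txndc16, a thioredoxin-domain protein, had 5.23 and 6.71 CPM in rescue and 5.56 and 5.89 CPM in KO, against 0.901 and 1.13 CPM in wild type. Both passed close to the 5 CPM floor, with rescue and KO overlapping. Lrrc75b, within 500 kb of Ggt5 on chromosome 10, had 9.32 and 7.63 CPM in rescue and 9.73 and 8.89 CPM in KO, against 2.03 and 2.07 CPM in wild type. Slfn10-ps, a pseudogene of the Schlafen cluster that is not on the ISG list, had 17.5 and 15.8 CPM in rescue and 17.5 and 17.1 CPM in KO, against 3.83 and 3.67 CPM in wild type. Its log2 fold change between rescue and KO was 0.011 (SE 0.14, adjusted p = 0.969).

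The remaining 11 of the other members were not called between rescue and KO. They were the Slit receptor Robo1 and the protocadherin Fat4, the secreted proteins Gas6 (a ligand of TAM receptors), Htra3 (a protease) and Nptx1 (a pentraxin), the adaptors Tgfb1i1 and Obsl1, the kinase Dclk2, the phospholipase Plcb4, the T-box factor Tbx20, and Armcx4. By role, the 4 matrix and secreted genes, Col3a1 included, had log2 fold changes of -0.12 to 0.34 for rescue over KO, the 3 adhesion and guidance genes -0.34 to 0.21, and the 3 channels and transporters -0.43 to -0.065. Plcb4 came nearest to a call, at -0.45 (adjusted p = 0.0508).

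Of the genes on lists related to the other members, again without the members, the share called is read against that of all genes tested, which was 23.2% higher and 23.5% lower in KO against wild type, 10.2% and 12.0% in rescue against wild type, and 8.35% and 5.88% in rescue against KO. Of 39 extracellular matrix genes, the list that holds Col3a1, 1 was higher and 25 (64.1%) lower in KO than in wild type, 4 were higher and 15 (38.5%) lower in rescue than in wild type, and 20 (51.3%) were higher and 1 lower in rescue than in KO. Fn1, fibronectin, led the list with 2753 and 4032 CPM in rescue and 1516 and 1516 CPM in KO, against 5108 and 4562 CPM in wild type. Of 29 lysosome and melanosome genes, the list of Gpnmb, 10 (34.5%) were higher and 6 (20.7%) lower in KO than in wild type, and 2 (6.90%) were higher and 3 (10.3%) lower in rescue than in wild type, so that the shares in rescue and the lower share in KO were near those of all genes. In rescue against KO 1 was higher and 7 (24.1%) were lower. Of 18 ion channel genes, the list of Kcnmb1, 1 was higher and 8 (44.4%) lower in KO than in wild type, and 4 (22.2%) were lower in rescue than in wild type. In rescue against KO 4 (22.2%) of these channel genes were higher and 1 (5.56%) lower. Of 26 solute carriers, the list of Slc6a15, 3 (11.5%) were higher and 10 (38.5%) lower in KO than in wild type, and 2 (7.69%) were higher and 5 (19.2%) lower in rescue than in wild type. In rescue against KO 3 (11.5%) carriers were higher and 4 (15.4%) lower. The lists without a member gave, in KO against wild type, 2 higher and 7 (58.3%) lower of 12 SMAD and BMP targets, 4 higher and 33 (68.8%) lower of 48 growth factors and secreted signals, 16 higher and 16 lower (31.4% each) of 51 homeobox and developmental factors, and 3 higher and 8 (42.1%) lower of 19 p53 targets. In rescue against KO the SMAD and BMP targets had 4 higher and 4 lower (33.3% each), and the growth factors 15 (31.2%) higher and 6 (12.5%) lower. The homeobox factors had 6 (11.8%) higher and 5 (9.80%) lower there, and the p53 targets 5 (26.3%) higher and 0 lower. Of 4 complement genes 0 were higher and 2 lower by edgeR, which had 1 higher at an unadjusted p under 0.05, and DESeq2 called 0 higher.

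**Figure D4:**
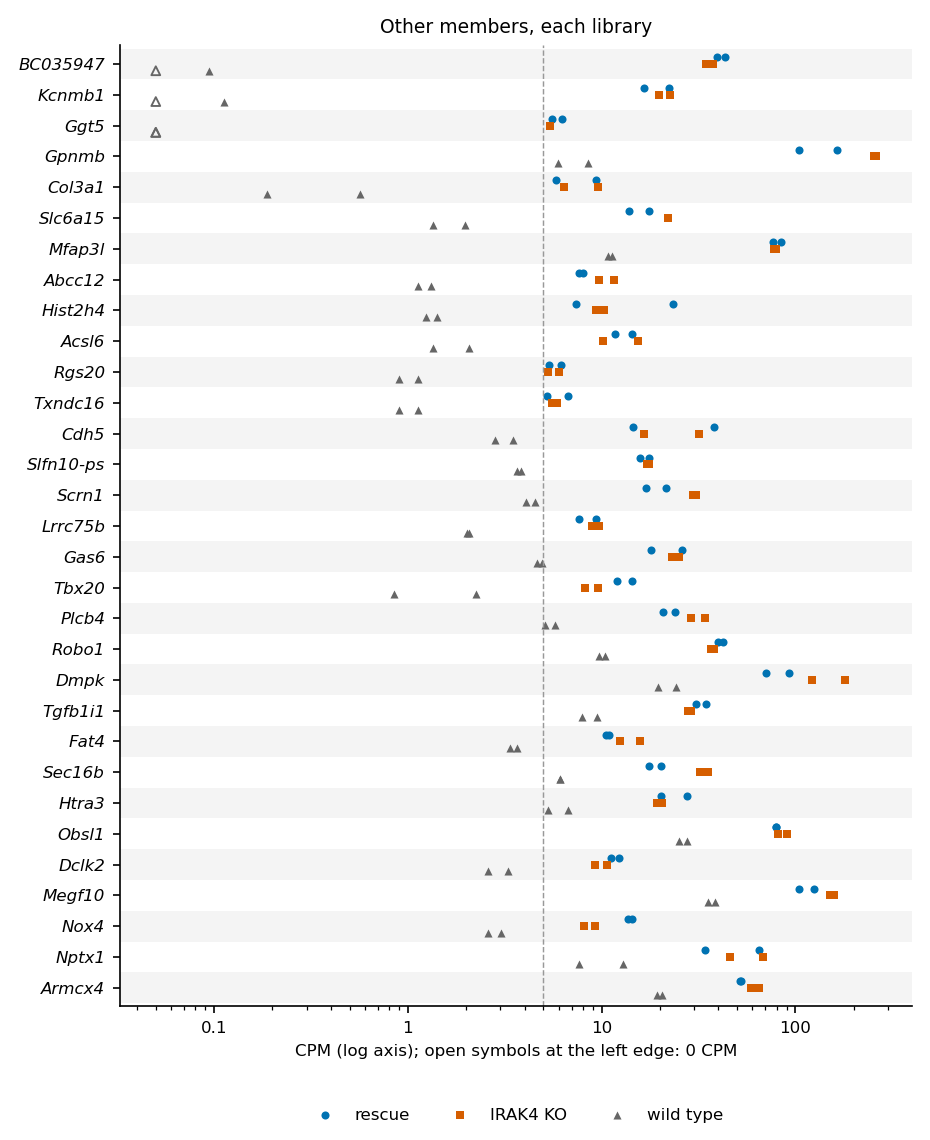
CPM of the 31 other members (x axis, log scale) by gene (y axis, ordered as for the ISG members), with 1 symbol per library: circles for rescue, squares for KO and triangles for wild type, with open triangles at the left edge for 0 CPM. Gpnmb, Dmpk, Sec16b, Scrn1 and Megf10 show squares right of circles, and BC035947, Kcnmb1 and Ggt5 have triangles near or at 0.

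The members lie on 19 chromosomes, and 19 of the 68 had another member within 500 kb, in 8 groups of neighbours. ISGs made up 16 of these 19 genes. The groups were Oas2, Oas3 and Oas1g on chromosome 5, Psmb9, Tap1 and Psmb8 on chromosome 17, Slfn9, Slfn10-ps and Slfn2 on chromosome 11, Gbp7 and Gbp3 on chromosome 3, Apol9a and Apol9b on chromosome 15, Trim30a and Trim30d on chromosome 7, Gm4951 and Iigp1 on chromosome 18, and Lrrc75b and Ggt5 on chromosome 10. In the chromosome 5 stretch Oas1c and Oas1b reached 5 CPM and were no members. Counts within these families depend on how reads shared between near-identical copies were assigned, so single Oas, Apol9, Trim30, Gbp, Slfn and H2 genes are uncertain. For 15 members an exon overlaps another gene that is read from the other strand, as for Psmb9 with Tap1, Usp18, Irf7 and BC035947 (with Mogat1), and as the strand setting is not given in the sources used here, reads of such pairs cannot be told apart.

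The rule's thresholds fell within a continuous range. Just inside the ratio of 2.5 were Armcx4 (lowest library 2.51 times the higher wild-type value), Gbp9 (2.58) and Oas1g (2.59), and just outside were Zfhx2 (2.49), Oas1a (2.47) and Ltbp4 (2.34). Just inside 5 CPM were Txndc16 (lowest library 5.23 CPM), Rgs20 (5.28 CPM) and Ggt5 (5.39 CPM), and just outside were Nova1 (4.80 CPM), F830016B08Rik (4.61 CPM) and Aadat (4.60 CPM). With TMM-scaled totals Armcx4, Gbp9, Ifi44, Nox4 and Oas1g fell under the ratio.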

How the data were processed

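The read counts, CPM and RPKM of 41388 genes per library are the authors' deposited values, per the file headers; the submitters' processing notes name bcl2fastq, STAR 2.0.4b, Subread, featureCounts 1.45 and build GRCm38, while the strand setting and annotation release were not given in the sources used here. The counts as deposited by the authors were the base of every test. CPM in the text was recomputed from the deposited counts and the library total in place of the authors' CPM column, and the authors' RPKM served for levels between genes. Symbols came from GENCODE M21 for 40340 identifiers.

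The groups, from the sample titles, have 2 libraries each, with totals of 7605328 to 11505983 counts. Genes kept by filterByExpr (minimum count 10, minimum total 15; 12339 genes) were scaled by TMM and fitted in edgeR 4.0.16 (R 4.3.3) with its quasi-likelihood test, 1 mean per group over all 6 libraries, which leaves 3 residual degrees of freedom. An adjusted p (Benjamini-Hochberg over 12339 genes) under 0.05 was a call. SE is that of edgeR's log2 fold change. The fit was first tested on simulated data. Where wild type had 0 counts the ratio was taken to 3 counts summed over the group, and ratios against 1 to 3 counts have a 95% interval; both cover counting error only. A gene listed with 0 counts in all libraries was given the same 3 counts over their summed total.

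The members, the 15 gene lists and 11 marker lists, and the roles were chosen with earlier results of these data known. Every library is given for the 14 ISG and 16 other members furthest above wild type, for up to 5 members per direction with the smallest adjusted p of rescue against KO, and the RPKM of the 5 highest members; up to 3 genes per list were named by mean CPM. Alternatives were other thresholds of the rule, DESeq2 1.42.0, DESeq2 size factors, no filter, only the groups compared, the replicate block, and each library left out. Values of 1 ISG member and of 1 marker gene are not reported here; both stay in the counts and sums.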

Additional observations from a re-analysis of the deposited data

How the results depend on the processing

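With a ratio of 3 the rule gave 45 members, 20 of them outside the ISG list, and with a ratio of 2 it gave 99, 50 outside the list. CPM floors of 2 and 10 gave 78 and 54, TMM-scaled totals gave 63 (without Armcx4, Gbp9, Ifi44, Nox4 and Oas1g), the wild-type mean gave 72, and leaving out 1 library gave 70 to 84. A lower ratio or floor, the wild-type mean and a library left out can only relax the rule. That all 68 members stayed in these settings was therefore fixed in advance and does not show stability.

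Rescue against KO depended most on which libraries entered. Leaving out each library in turn gave 9 to 27 members higher (ISG members 9 to 24, others 0 to 3) and 0 to 10 lower (ISG members 0 to 2, others 0 to 8), with the lowest higher counts without the second KO library and the most lower calls without the first rescue library. Over all genes the range was 139 to 1849 higher and 64 to 1596 lower. The median log2 fold change was 0.485 to 0.748 for ISG members, -0.19 to 0.0686 for the others and -0.00503 to 0.000547 for all genes. Without 1 library, its lone partner was assumed to vary like the other groups. DESeq2's Wald test gave 0 other members higher, 378 genes lower in rescue than in KO and 751 higher in rescue than in wild type, and kept 22 of the 29 member calls. Fitting only the groups compared gave 667 genes higher and 377 lower. Without a filter 3 other members were higher. KO against wild type gave 1688 to 3297 genes higher with a library left out, and rescue against wild type 417 to 1699, the lowest counts both without the first wild-type library. No member call turned its direction under any alternative tried.

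The replicate numbers of the titles showed no sign of pairing the libraries, which cannot show that they were unpaired. Deviations from the group means correlated at 0.037 between KO and wild type, -0.153 between rescue and wild type, and -0.192 between rescue and KO over 12339 genes. With the replicate block 429 genes were lower in rescue than in KO, and 28 of the 29 member calls were kept, Gbp3 being lost. A crossed replicate block, chosen after seeing the data, gave 2 other members higher and 1135 genes lower. With 2 libraries per group, a member not called may still differ.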
